A study of Mus musculus with 11 samples.

Results

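The solute carriers expressed in CD8+ Tregs of young and middle-aged mice are described here. Members were chosen by raw counts: they are the rows of the count table that are protein-coding, carry a symbol of Slc followed by a digit and hold 10 or more raw counts in at least 9 of the 11 libraries. Of 371 protein-coding Slc genes in a table of 54532 genes, 160 were taken as members. Of the 160 members, 157 encode carriers, while Slc4a1ap, Slc7a6os and Slc9a3r1 were named after a carrier and are not carriers themselves. The rule uses the counts of all libraries and does not read age, so levels are given as a description and age was tested. Members that fell under 10 counts in a library did so mostly in 2 young ones. There were 36 such members in young male 1 and 19 in young female 1, against 0 or 1 in each other library. The effect of this on the age differences was not tested. All 160 members were among the 13129 genes tested.

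The cells were CD8+CD44+Ly49+CD122+ T cells, the CD8+ Tregs, which were FACS sorted from the spleens of WT C57BL/6J mice after bead selection of CD8+ cells. Young and middle-aged mice of both sexes were sequenced in bulk. Young males and young females, 2 to 3 months old, gave 3 libraries each, middle-aged males, 10 to 12 months old, gave 2, and middle-aged females of the same ages gave 3. The study asked how the transcriptome of these cells changes with age. The sample labels call the older group old, and the paper calls it middle-aged, which is the term used here. No group carried an engineered allele or a treatment. For this sequencing the paper's figure legend gives ages of 3 and 12 months, and it describes the replicates as biologically independent. The labels do not say whether a library came from 1 mouse or from a pool, so the spread between libraries may be partly technical.

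Solute carriers move small molecules across membranes. Those of the plasma membrane bring in amino acids, sugars, nucleosides, vitamins and metals, those of the Slc25 family connect the mitochondrial matrix with the cytosol, and many of the Slc35 family carry activated sugars into the Golgi and the endoplasmic reticulum. T cells leave quiescence with increased uptake of glucose and of amino acids such as glutamine and leucine, export lactate through monocarboxylate carriers, and balance zinc and iron through import and export carriers. Each member was placed in a class by the substrate that its family is known to carry.

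Promoter sequences bear on which members share a regulatory element. RefSeq windows of GRCm38.p6 were found for 119 members, some with more than 1 start, which gave 160 windows of 250 bases upstream of a start site. For 110 of the 160, the bases just after the start lay in an annotated transcript of the gene on the same strand. Both strands were searched for the metal response element (TGCACNC or TGCGCNC), the C/EBP-ATF element (TGATGNAA) and the E-box (CACGTG). The metal response element stood in 21.4% of all 32851 promoter windows, in 27.5% of the members' windows, in 9 of the 19 windows of metal and heme carriers (47.4%) and in 0 of the 22 windows of amino acid and peptide carriers. Windows of the same gene are not independent, and Slc39a11 gave more than 1 of the 9 metal and heme windows with a match. The E-box stood in 6.02% of all windows and in 13.8% of the members' windows. The C/EBP-ATF element stood in 3.45% of all windows and in 3.12% of the members' windows. The windows also differed in base composition, with a median GC content of 52.4% over all windows, 61.2% over those of members and 62.8% over those of metal and heme carriers, and the part of composition in these shares was not tested. A match is a description of the letters and not a site. The 4 windows here run 5′ to 3′ on the strand of the gene, with the matched letters in capitals. Slc30a1 exports zinc across the plasma membrane and Slc30a4 loads zinc into vesicles, and both are shown for the metal response element, here read on the other strand. Slc50a1, a sugar efflux carrier and the sugar carrier with the highest level, is shown for the C/EBP-ATF element. Slc25a33, the mitochondrial pyrimidine nucleotide carrier with the smallest p for age, is shown for the E-box.
Slc30a1 (chr1:191906531-191906780, plus strand): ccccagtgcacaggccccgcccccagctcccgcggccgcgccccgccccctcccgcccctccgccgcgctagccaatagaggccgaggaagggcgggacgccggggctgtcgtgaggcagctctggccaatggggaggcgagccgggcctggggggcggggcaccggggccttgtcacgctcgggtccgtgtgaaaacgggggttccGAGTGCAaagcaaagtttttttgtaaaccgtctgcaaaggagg
Slc30a4 (chr2:122702664-122702913, minus strand): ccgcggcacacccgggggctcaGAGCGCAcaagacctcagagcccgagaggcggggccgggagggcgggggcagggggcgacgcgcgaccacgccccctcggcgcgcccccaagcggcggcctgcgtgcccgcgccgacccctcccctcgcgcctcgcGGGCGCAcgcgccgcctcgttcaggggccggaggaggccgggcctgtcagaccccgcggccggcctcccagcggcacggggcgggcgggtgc
Slc50a1 (chr3:89270571-89270820, minus strand): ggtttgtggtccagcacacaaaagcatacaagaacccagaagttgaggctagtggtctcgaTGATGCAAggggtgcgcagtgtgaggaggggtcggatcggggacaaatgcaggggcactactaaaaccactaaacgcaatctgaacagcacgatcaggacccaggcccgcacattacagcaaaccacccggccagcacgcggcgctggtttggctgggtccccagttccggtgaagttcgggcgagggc
Slc25a33 (chr4:149774268-149774517, minus strand): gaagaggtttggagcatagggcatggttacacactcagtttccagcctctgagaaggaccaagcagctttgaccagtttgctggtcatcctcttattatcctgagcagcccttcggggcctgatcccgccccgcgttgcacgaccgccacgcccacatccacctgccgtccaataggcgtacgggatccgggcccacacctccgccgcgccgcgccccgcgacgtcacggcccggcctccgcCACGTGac

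Library totals ran from 6135736 to 24394532 counts, with the smallest 2 in young male 1 and young female 1, where 36 and 19 members lay under 10 counts. The markers of CD8 Tregs (11 genes, among them Cd8a, Cd3e, Il2rb, Ikzf2 and the Ly49 genes Klra1, Klra6 and Klra7) were present in every library, with summed levels of 7590 to 12300 CPM in young and 7360 to 11600 CPM in middle-aged libraries. CPM are counts scaled to library size with TMM factors. Several libraries stood apart. Middle-aged female 2 had a summed level of 12 myeloid markers of 2760 CPM, against 48 to 294 CPM in young and 162 to 339 CPM in the other middle-aged libraries, with 1060 CPM of Lyz2 and 700 CPM of S100a8, and also the highest sums of plasma cell (228 CPM) and B cell markers (617 CPM). The 4 libraries with replicate number 1 shared a profile that the age groups do not explain. Numbers 2 and 3 also differed from each other. Members held 0.663% to 0.796% of counts in libraries numbered 1, 0.859% to 0.943% in those numbered 2 and 0.993% to 0.994% in number 3. Other marker sums also differed between the age groups, with overlap. The 9 erythroid and platelet markers summed to 29.7 to 157 CPM in young and 1.28 to 38.1 CPM in middle-aged libraries. They were highest in young male 3 (157 CPM) and young female 1 (133 CPM). The 9 NK cell markers summed to 1100 to 1500 CPM in young and 729 to 1380 CPM in middle-aged libraries. The part of other cells in the age differences was not tested. In bulk RNA, fewer cells of a type and less RNA per cell cannot be told apart.

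To compare levels between carriers, CPM were divided by gene length. For 151 of the 160 members this length equals the union of all exons annotated in GENCODE M21. It is not the length of the transcript expressed, so the order of members is approximate. The transcript of an ADP/ATP carrier of the inner mitochondrial membrane had the highest level. Slc25a5, an ADP/ATP carrier, had 594 CPM per kb ± 193 (SD, n = 11), 22.9% of the members' total per-kb level, with 344 to 932 CPM per kb over the libraries. The other expressed ADP/ATP carrier, Slc25a4, had 127 ± 34.4 CPM per kb, the 2-oxoglutarate/malate carrier Slc25a11 had 101 ± 15.2 and the phosphate carrier Slc25a3 had 55.7 ± 13.9. All 4 were among the 10 highest of the 160 members. Slc9a3r1, a scaffold protein and not a carrier, had 192 ± 32.4 CPM per kb. Slc50a1 followed with 148 ± 59.1 CPM per kb.

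Among amino acid carriers the glutamine carrier Slc1a5 led with 86.3 ± 18.4 CPM per kb, followed by Slc3a2, the heavy chain of CD98, with 61.6 ± 15.4 CPM per kb. Slc35a4 of the nucleotide sugar family had 69.2 ± 8.65 CPM per kb, and the choline carrier-like Slc44a2 had 57.9 ± 20. Neighbours in this order overlapped over the 11 libraries, for example Slc25a4 (86.1 to 179 CPM per kb) and Slc50a1 (96.0 to 266). Slc25a5 at its lowest library lay above Slc9a3r1 at its highest, 244 CPM per kb. The level was concentrated, since 7 members made up most of the per-kb sum. The median member had 5.25 CPM per kb against 5.39 over all genes tested, 52 members exceeded 10 CPM per kb and 18 lay under 1. The glucose carrier Slc2a1 had 23.0 ± 4.87 CPM per kb, and the divalent metal carrier Slc11a2, first among metal carriers, had 21.7 ± 4.47.

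**Figure D1:**
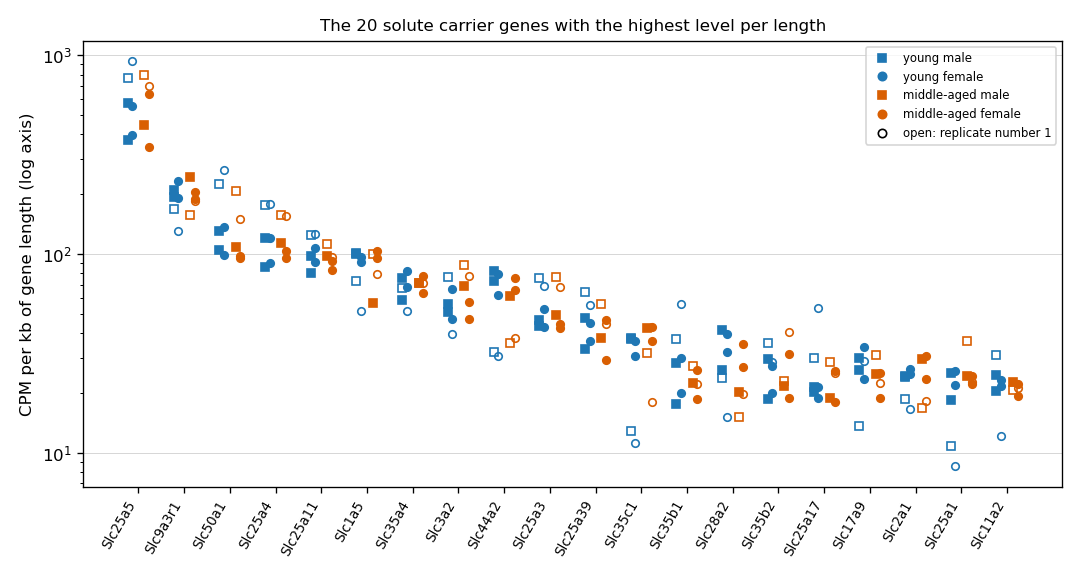
Level of the 20 highest members in CPM per kb of gene length (log axis), 1 point per library, blue for young and orange for middle-aged, squares for males, circles for females and open symbols for replicate number 1. Slc25a5 lies apart at 344 to 932 CPM per kb, and young and middle-aged points overlap in each of the 20 genes.

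At the lower edge, 16 members reached 10 counts in exactly 9 libraries, 27 in 10 and 117 in all 11. Just inside the rule lay Slc16a3 with a median of 38 counts, Slc7a7 with 27 and Slc40a1 with 124, each at 0 counts in the library with the fewest. Outside it, 16 Slc genes reached 10 counts in 7 or 8 libraries, among them the phagosomal metal carrier Slc11a1 with a median of 37 counts and Slc39a8, a zinc and manganese importer, with 64. A further 138 Slc genes reached 10 counts in no library, and 83 of these had no count in any.

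Summed over the members of a class, transcript abundance overlapped between young and middle-aged libraries in all 12 classes. The 37 mitochondrial carriers had the highest sum, 2820 CPM ± 465 (SD, n = 6) in young and 2850 ± 508 (n = 5) in middle-aged libraries. The 18 amino acid and peptide carriers summed to 1140 ± 243 CPM in young against 1200 ± 108 CPM in middle-aged libraries. For the 14 carriers of nucleotide sugars and acetyl-CoA the sums were 795 ± 70.3 and 845 ± 48.2 CPM. The 23 metal and heme carriers had 728 ± 85.7 and 717 ± 62.3 CPM, and the 10 sugar and polyol carriers had 537 ± 33.7 and 513 ± 26.5 CPM. In each of these classes the difference of the means was below the SD of the young group.

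In most of the remaining classes the means also lay close together. The 9 vitamin and choline carriers had 685 ± 238 CPM in young against 650 ± 163 CPM in middle-aged libraries, the 19 carriers of inorganic ions 581 ± 264 and 596 ± 207 CPM, and the 13 carriers of organic acids, amines and drugs 426 ± 74.1 and 417 ± 35.0 CPM. The 4 nucleoside and nucleobase carriers had 209 ± 42.3 and 191 ± 36.2 CPM, and the 2 fatty acid carriers had 24.4 ± 14.0 and 34.3 ± 9.69 CPM, a difference of 0.81 in mean log2 sum that was 0.35 without young male replicate 1. The 8 members with no settled substrate had 193 ± 96.8 and 240 ± 81.3 CPM, a difference of 0.47 in mean log2 sum that was 0.13 without young male replicate 1, and their log2 fold changes were positive in 8 of 8. Their lowest values, 50.4 and 99.3 CPM, were in young male 1 and young female 1, the 2 shallowest libraries. The deeper middle-aged male 1 and middle-aged female 1 came next, with 153 and 155 CPM. All libraries numbered 1 thus lay below the others, which had 221 to 329 CPM. No test was run on class sums, since the classes were made with earlier results of these data known.

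**Figure D2:**
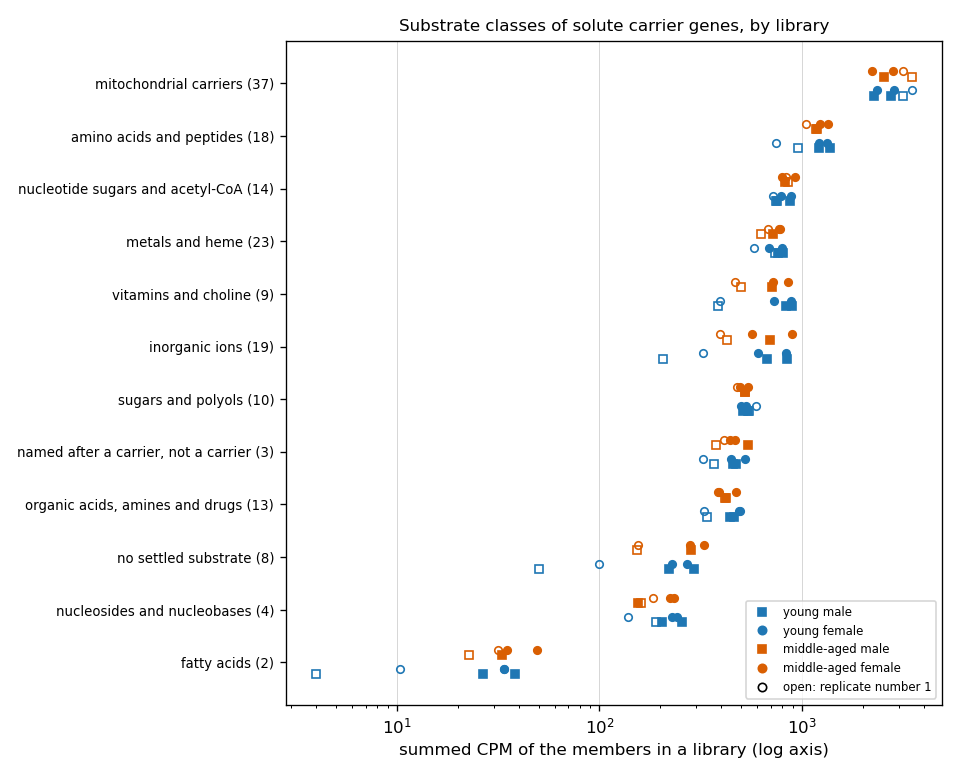
Summed CPM (log axis) of the members of each substrate class in each of the 11 libraries, with the number of members in parentheses, blue for young, orange for middle-aged and open symbols for replicate number 1. Young and middle-aged points overlap in every class, while the open symbols lie above the filled ones for mitochondrial carriers (3140 to 3500 against 2210 to 2860 CPM) and below them for vitamin and choline carriers (383 to 500 against 711 to 896 CPM).

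The age comparison found no member past the adjusted threshold. EdgeR's quasi-likelihood test, adjusted by Benjamini and Hochberg over all genes, gave 0 calls among the members: 0 of 160 members had an adjusted p under 0.05, against 0.0229% of all genes tested, and the lowest adjusted p of a member was 1. DESeq2 and limma voom also called 0 members, where they called 0.853% and 1.05% of all genes. At an unadjusted p under 0.05, edgeR passed 4 members (2.50%), against 2.99% of all genes tested, DESeq2 passed 6 members (4.43% of all genes) and limma voom 8 (8.96% of all genes). Of the edgeR 4, 2 were higher in middle-aged libraries, among them Slc39a4, where 2.00% of all genes were, and 2 were lower, Slc25a33 and Slc16a5, where 0.990% were. A complete separation of the 6 young from the 5 middle-aged libraries was seen in 0 members, against 1.32% of all genes tested.

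The fold changes were small beside their errors. Over the members, log2 fold changes of middle-aged over young had a median size of 0.20 with a median SE of 0.40, and the 95% interval lay within -1 and 1 for 68 members (42.5%), against 37.7% of all genes tested. For the other 92 members the interval reached a 2-fold change in at least 1 direction. Log2 fold changes were positive in 103 members (64.4%), against 50.4% of all genes tested. The median was 0.08 for members against 0.003 for all genes tested, and the members' median fell below 0 with limma voom (-0.01), in the libraries with over 10000000 counts (-0.09), in libraries numbered 2 and 3 (-0.005) and without young male replicate 1 (-0.004). Over the 117 members tested with at least 10 counts in every library, the median was 0.04. The sign of the median thus changed with the setting. Positive values were counted in 27 of 37 mitochondrial carriers, 13 of 23 metal carriers, 11 of 18 amino acid carriers and 9 of 19 carriers of inorganic ions.

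**Figure D3:**
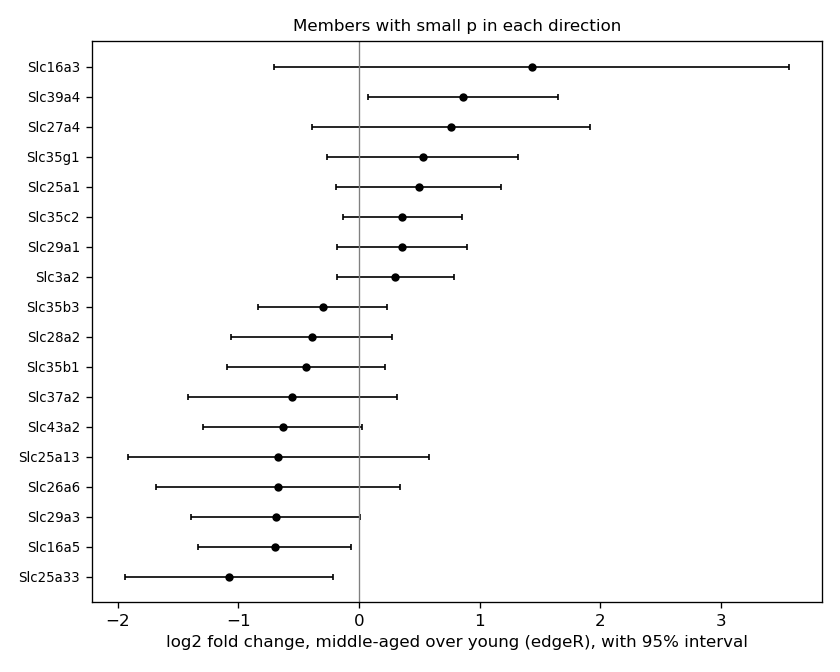
Log2 fold change of middle-aged over young libraries (points) with the 95% interval from edgeR (bars) for 18 members with small unadjusted p, 8 with a positive value and 10 with a negative one. The intervals of 15 of the 18 members include 0, and those of Slc39a4, Slc25a33 and Slc16a5 do not.

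Zinc and iron carriers come first. Slc39a4, a zinc importer of the plasma membrane, ranged from 4.30 CPM over a median of 17.3 to 21.8 CPM in young libraries. The middle-aged male libraries had 30 and 22.6 CPM and the middle-aged female libraries 21.2, 34.4 and 23.6 CPM. All but middle-aged female 1 exceeded the highest young library, so the groups overlapped in 1 library. The log2 fold change was 0.86 (SE 0.36), with an edgeR unadjusted p of 0.0344, an adjusted p of 1 and an exact 2-sided permutation p of 0.013. Middle-aged levels were higher within each replicate number, by 1.49, 0.69 and 0.44 on the log2 scale. The last sets middle-aged female 3 alone against young libraries of both sexes. The gene was picked for its p in these same libraries, so these differences are a description. The fold change was 0.44 with limma voom and 0.43 in males alone.

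Slc40a1, ferroportin, the iron exporter of macrophages and other cells, was carried by 2 young libraries. It ranged from 0 over a median of 2.47 to 77.2 CPM in young libraries, with 77.2 CPM in young male 3, 54.3 CPM in young female 3 and at most 4.37 CPM in the other 4. Middle-aged male libraries had 5.89 and 4.60 CPM, and middle-aged female libraries 12.4, 18.1 and 6.25 CPM. Its log2 fold change of -1.37 (SE 1.47) became 0.82 without young male replicate 3 and 0.04 without young female replicate 3. The same 2 libraries had the highest levels of the macrophage genes Vcam1 (54.0 and 30.6 CPM, against 0 to 9.62 CPM elsewhere) and C1qa (24.8 and 16.6 CPM, against 0 to 4.81 CPM elsewhere), named after their values were seen. Of the other markers, Csf1r had 59.4 and 39.2 CPM and Adgre1 18.3 and 14.0 CPM there, but 58.1 and 16.2 CPM in middle-aged female 2, and Lyz2, S100a8 and S100a9 were not highest in these 2 libraries. Their sums of all 12 myeloid markers, 294 and 209 CPM, lay within the range of the other libraries. The part of macrophage RNA in the Slc40a1 level was not tested. The zinc exporter Slc30a1, whose promoter is printed above, had 7.54 CPM ± 3.89 (SD, n = 6) in young and 9.24 ± 3.34 (n = 5) in middle-aged libraries.

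Slc16a5, an organic anion and drug carrier of the monocarboxylate family, ranged from 46.9 over a median of 79.2 to 101 CPM in young libraries. The middle-aged male libraries had 69.9 and 49.3 CPM and the middle-aged female libraries 39.2, 20.6 and 56.1 CPM. Only young female 1, the lowest young library, fell among the middle-aged values. The log2 fold change was -0.70 (SE 0.29), with an edgeR unadjusted p of 0.0327, an adjusted p of 1 and an exact 2-sided permutation p of 0.0281.

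Slc16a3, which exports lactate from glycolytic cells, was near the detection limit. It ranged from 0 over a median of 1.62 to 4.31 CPM in young libraries. In middle-aged males it stood at 4.46 and 3.66 CPM and in middle-aged females at 1.90, 9.87 and 1.75 CPM. Its highest value was in middle-aged female 2, the library with 2760 CPM of myeloid markers, and without that library the log2 fold change moved from 1.43 (SE 0.98) to 0.86. The part of myeloid RNA in it was not tested. Per length, the lactate carrier Slc16a1 had the higher level, with 13.4 against 0.53 CPM per kb. Young libraries held 55.4 CPM ± 28.2 of Slc16a1 (SD, n = 6) and middle-aged ones 64.4 ± 21.5 (n = 5).

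**Figure D4:**
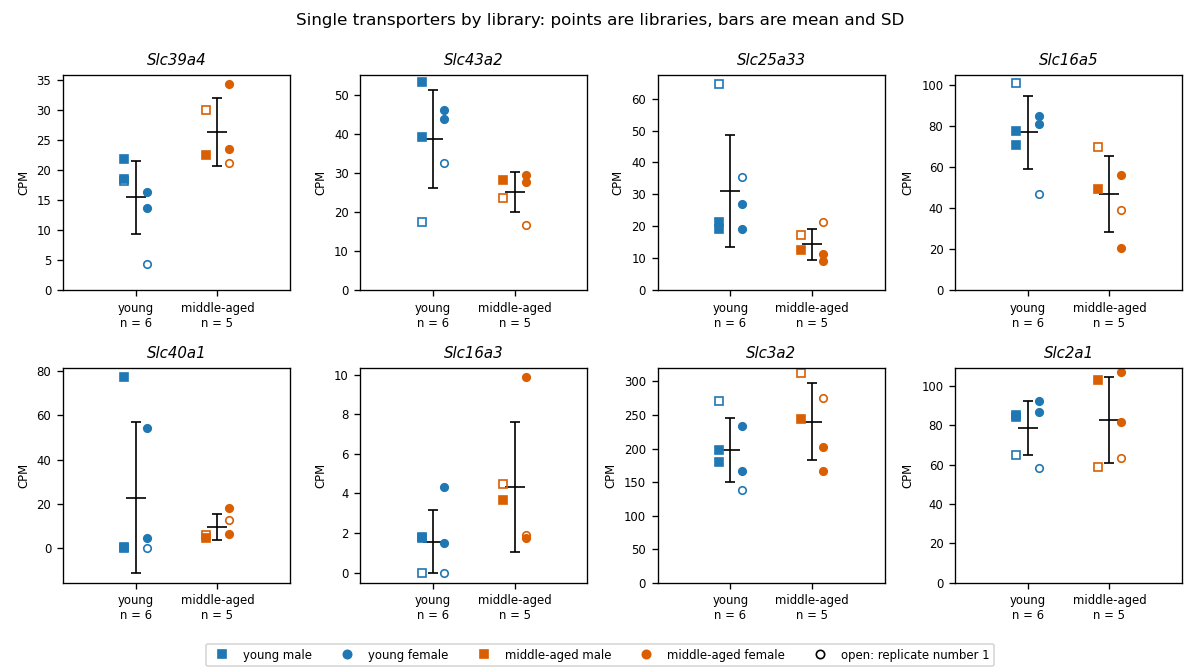
CPM of 8 carriers in each library (points), with the mean and SD of each age group (bars), blue for young, orange for middle-aged, squares for males, circles for females and open symbols for replicate number 1. Slc39a4 and Slc16a5 overlap between the age groups in few libraries, Slc40a1 is high in young male 3 (77.2 CPM) and young female 3 (54.3 CPM), and Slc3a2 and Slc2a1 overlap widely.

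Of the mitochondrial carriers, Slc25a33, which moves pyrimidine nucleotides into the matrix, had the smallest p of all members. It ranged from 19.0 over a median of 24.1 to 64.7 CPM in young libraries. The middle-aged male libraries had 17.1 and 12.7 CPM and the middle-aged female libraries 21.3, 9.12 and 11.3 CPM. Only middle-aged female 1 reached into the young range. The log2 fold change was -1.08 (SE 0.40), with an edgeR unadjusted p of 0.0188, an adjusted p of 1 and an exact 2-sided permutation p of 0.0195. Middle-aged levels were lower within each replicate number, with differences of -1.32, -1.14 and -0.75 on the log2 scale. The last sets middle-aged female 3 alone against young libraries of both sexes. The gene was picked for its p in these same libraries, so the 3 differences are a description. Without young male replicate 1, the highest library, the log2 fold change was -0.75, and it was -0.61 in the libraries with over 10000000 counts. Exons of Gm13068 on the opposite strand cover 14.9% of the gene's length, and whether counting used strand is not given in the sources used here.

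Slc25a1, the citrate carrier that feeds cytosolic acetyl-CoA, ranged from 18.5 over a median of 43.6 to 56.0 CPM in young libraries. In middle-aged males it stood at 78.8 and 52.6 CPM and in middle-aged females at 49.3, 52.4 and 47.7 CPM. The highest value was in middle-aged male 1, and the log2 fold change of 0.50 (SE 0.31) was 0.34 without that library. The aspartate-glutamate carrier Slc25a13 had 5.75 CPM ± 3.06 (SD, n = 6) in young and 3.50 ± 1.71 (n = 5) in middle-aged libraries, and its isoform Slc25a12 had 77.7 ± 47.1 and 83.5 ± 16.3 CPM, and per length they had 1.24 and 10.9 CPM per kb over all libraries. The NAD carrier Slc25a51 had 45.0 ± 12.1 and 51.9 ± 11.3 CPM. The most abundant carrier, Slc25a5, ranged from 618 over a median of 936 to 1530 CPM in young libraries. The middle-aged male libraries had 1310 and 735 CPM and the middle-aged female libraries 1150, 1050 and 566 CPM, all within or near the young range, with a 95% interval of the log2 fold change from -0.72 to 0.64.

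For amino acids, Slc3a2, which pairs with light chains to exchange large neutral amino acids, ranged from 139 over a median of 189 to 271 CPM in young libraries. In middle-aged males it stood at 312 and 244 CPM and in middle-aged females at 275, 203 and 166 CPM. The groups overlapped in 3 middle-aged libraries, and the log2 fold change was 0.30 (SE 0.22). Slc43a2, a carrier of large neutral amino acids, ranged from 17.5 over a median of 41.6 to 53.4 CPM in young libraries. The middle-aged male libraries had 23.7 and 28.2 CPM and the middle-aged female libraries 16.8, 27.6 and 29.4 CPM. Apart from young male 1, each young library exceeded each middle-aged library, and the log2 fold change was -0.63 (SE 0.30), with an edgeR unadjusted p of 0.0591, an adjusted p of 1 and an exact 2-sided permutation p of 0.0866. Its adjusted p with limma voom, 0.0972, was the lowest of any member under any setting tried. Slc1a5 had 356 CPM ± 80.8 (SD, n = 6) in young and 365 ± 80.9 (n = 5) in middle-aged libraries, with a 95% interval of the log2 fold change from -0.50 to 0.57.

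Of the nucleoside carriers, the equilibrative carrier Slc29a1 had 62.5 CPM ± 14.4 (SD, n = 6) in young and 77.9 ± 19.2 (n = 5) in middle-aged libraries, with a log2 fold change of 0.36 (SE 0.25) that was -0.01 with limma voom. The concentrative carrier Slc28a2 had 125 ± 42.2 and 98.8 ± 33.2 CPM, and the lysosomal carrier Slc29a3 had 17.8 ± 6.5 and 11.3 ± 3.47 CPM, with a log2 fold change of -0.69 (SE 0.32). In the secretory pathway, Slc35c2 had 69.9 ± 16.0 and 89.6 ± 19.4 CPM, and the GDP-fucose carrier Slc35c1 had 90.8 ± 40.7 and 112 ± 33.4 CPM. Slc35b1, which supplies ATP to the endoplasmic reticulum, had 70.2 ± 31.3 and 51.8 ± 7.58 CPM, and Slc35b3, a carrier of the sulfate donor PAPS, had 67.2 ± 21 and 54.7 ± 10.0 CPM. The fatty acid carrier Slc27a4 had 14.9 ± 8.13 and 25.8 ± 7.71 CPM, the anion exchanger Slc26a6 had 14.0 ± 3.60 and 8.77 ± 4.08 CPM, the sugar phosphate carrier Slc37a2 had 18.7 ± 8.38 and 12.9 ± 4.34 CPM, and Slc35g1 had 17.2 ± 6.93 and 25.9 ± 8.21 CPM. None of these passed the edgeR test at an unadjusted p under 0.05.

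A list of 45 carriers with known roles in T cells held 41 members. The 95% interval of the age difference lay within -1 and 1 on the log2 scale for 22 of the 41, where it did so for 42.5% of members and 37.7% of all genes tested. The list was written with earlier results of these data known, so the count is a description. Both glucose carriers were among these 22. Slc2a1 ranged from 58.3 over a median of 84.9 to 92.5 CPM in young libraries. In middle-aged males it stood at 59.0 and 103 CPM and in middle-aged females at 63.7, 82.0 and 107 CPM. The groups overlapped widely, and the 95% interval ran from -0.44 to 0.58. Slc2a3 had 61.7 CPM ± 14.4 (SD, n = 6) in young and 54.3 ± 18.3 (n = 5) in middle-aged libraries, with an interval from -0.83 to 0.39. Per length, Slc2a1 had the higher level, with 23.0 against 8.05 CPM per kb. The neutral amino acid carriers Slc38a1 and Slc38a2 had 144 ± 17.8 and 93.0 ± 39.0 CPM in young against 133 ± 31.5 and 102 ± 38.5 CPM in middle-aged libraries. Slc11a2, the divalent metal carrier, had 141 ± 39.1 and 135 ± 8.61 CPM, with an interval from -0.51 to 0.46. The folate carrier Slc19a1 had 50.3 ± 5.86 and 50 ± 13.9 CPM, with an interval from -0.47 to 0.48, and the phosphate carrier Slc20a1 had 56.7 ± 11.6 and 61.9 ± 13.3 CPM.

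Carriers and partner proteins under other names gave a similar picture. Of 29 listed genes, 28 were in the table and 24 were tested. By edgeR, 0 had an adjusted p under 0.05, against 0.0229% of all genes tested. Of the 24, 15 stood above and 9 below a log2 fold change of 0, with a median of 0.05, where 50.4% of all genes tested stood above. At an unadjusted p under 0.05 only Npc1, the lysosomal cholesterol exporter, passed, with 15.5 CPM ± 7.61 (SD, n = 6) in young and 29.7 ± 3.82 (n = 5) in middle-aged libraries and an adjusted p of 1. That is 1 of 24, where 2.99% of all genes tested passed. Bsg and Emb, the chaperones of monocarboxylate carriers, had 342 ± 101 and 388 ± 66.9 CPM in young against 379 ± 75.0 and 393 ± 82.8 CPM in middle-aged libraries. The mitochondrial pyruvate carrier subunits Mpc1 and Mpc2 had 62.3 ± 39.1 and 131 ± 93.0 CPM in young against 55.0 ± 28.6 and 120 ± 49.4 CPM in middle-aged libraries.

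Sex was the second factor of the design. By edgeR, 0 of 160 members had an adjusted p under 0.05 for females against males, against 0.0381% of all genes tested, and 0 had an unadjusted p under 0.05, against 0.754%. The interaction of age and sex also gave 0 members at an adjusted p under 0.05, and 1 at an unadjusted p under 0.05 (0.625%, against 1.20% of all genes tested). This was Slc25a28, a mitochondrial iron importer, with an interaction log2 of -1.45 (SE 0.58), an edgeR unadjusted p of 0.0294 and an adjusted p of 1. Its young male libraries had 15, 24.2 and 21.8 CPM and its middle-aged male libraries 49.4 and 28.2 CPM, while young females had 47.9, 23.7 and 29.2 CPM and middle-aged females 25.7, 19.8 and 24.6 CPM. The 3 extreme values, 15, 49.4 and 47.9 CPM, were all in libraries numbered 1.

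Replicate number divided the members more widely than age did. The 4 libraries numbered 1, one from each sex and age, lay entirely above the other 7 libraries in 7 members (4.38%, against 12.8% of all genes tested) and entirely below them in 26 (16.2%, against 12.3%), which makes 33 members (20.6%) against 25.1% of all genes tested. The median absolute difference in mean log2 CPM was 0.75 between the libraries numbered 1 and the others and 0.32 between the age groups, against 0.78 and 0.23 over all genes tested. In 60 members (37.5%, against 27.8% of all genes tested) the libraries numbered 1 were lower by more than 1 on the log2 scale, and in 2 (1.25%, against 10.6%) they were higher by more than 1. The division by replicate number was thus general to the genes tested. The members above were Slc25a3, Slc25a4, Slc25a5, Slc25a14, Slc30a7, Slc31a1 and Slc50a1, which include the ADP/ATP and phosphate carriers of the mitochondrion. Slc25a5 had a mean of 1320 CPM in libraries numbered 1 and 785 CPM in the others, and Slc25a4 had 393 and 245 CPM.

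The members below included ion carriers with long gene models. The potassium-chloride cotransporter Slc12a7 had a mean of 47.5 CPM in libraries numbered 1 and 193 CPM in the others, and the sodium-proton exchangers Slc9a8 and Slc9a9 had 21.4 and 40.1 CPM against 64.2 and 77 CPM. Slc2a1 had 61.6 against 91.6 CPM, Slc16a1 had 31.9 against 75.3 CPM, and Slc44a2 had 296 against 620 CPM. The median gene length was 5890 bases in the members below and 2360 bases in those above. Over the 160 members, the difference had a Pearson correlation of -0.31 with log2 gene length, given as a description across genes that share the same libraries. The labels give the replicate number without saying what it stands for, and library totals within number 1 ran from 6135736 to 23113240 counts. It is balanced over age and sex except that middle-aged males lack a number 3. Numbers 2 and 3 were pooled here, though they differed too. Deviations from gene means, over all genes tested, were correlated with log2 gene length in each library. The correlation was -0.26 to -0.163 in libraries numbered 1, 0.023 to 0.173 in number 2 and 0.292 to 0.332 in number 3.

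**Figure D5:**
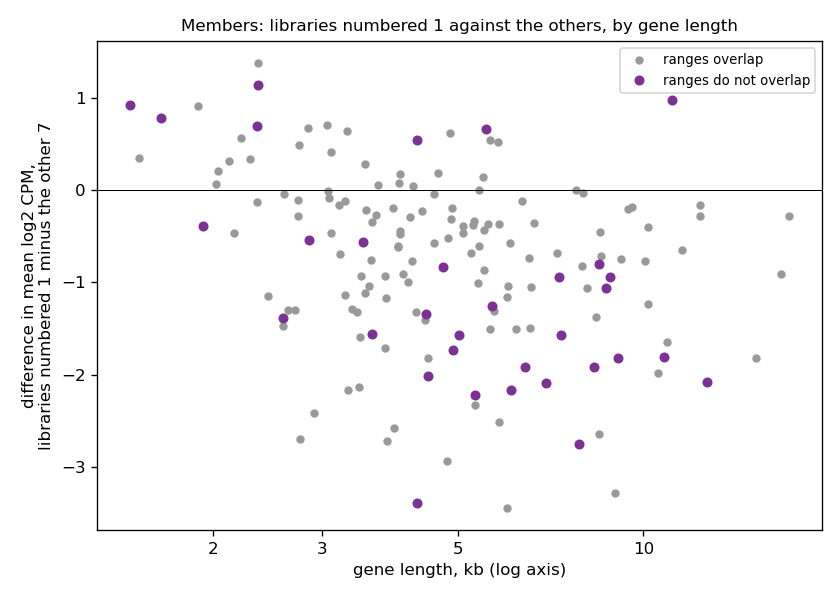
Difference in mean log2 CPM between the 4 libraries numbered 1 and the other 7, for each of the 160 members (points), against gene length in kb (log axis). Purple points are the 33 members whose ranges do not overlap, 26 below and 7 above, and the longer of these lie mostly below 0.

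Some members share transcript sequence with other genes, which leaves their counts uncertain because the assignment of shared reads is not stated. The share of 31-base words found in transcripts of another gene was under 5% in 142 members, with a median of 0.365%, and over 10% in 11. It was 76.8% for the zinc carrier Slc39a7, whose shared words all lie in the overlapping gene Gm20427, 49.4% for Slc25a5, where Gm5560 held the most, 46.3% for Slc28a2, with Gm14085, and 37.8% for the carnitine carrier Slc22a5, with Slc22a21.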

How the data were processed

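RNA of FACS-sorted splenic CD8+ Tregs was sequenced in 11 libraries from low-input SMARTer cDNA by a sequencing company. The authors deposited counts, whole numbers of reads per Ensembl gene with no normalization, and gene coordinates of GRCm38. The submitters' processing notes name kallisto and mm10 without a role, and strandedness, annotation release and test are not given in the sources used here. No column of samples was left unused (0). Members, substrate classes, gene lists and tests were chosen with earlier results of these data known, and a few carriers are not reported here.

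Analyses used R 4.3.3, edgeR 4.0.16, limma 3.58.1 and DESeq2 1.42.0. Genes kept by filterByExpr on age (minimum count 10, minimum total 15) were fitted with TMM factors, robust glmQLFit and glmQLFTest on a model of sex and age, and p-values received Benjamini-Hochberg adjustment over 13129 genes. Log2 CPM used a prior count of 2. Exact 2-sided permutation tests enumerated all 462 ways to assign 6 and 5 libraries to the age groups, with a smallest p of 0.00216. The limit that a count of 0 allows, 3 counts, was 0.123 to 0.489 CPM and covers counting error only, since reads had no molecular identifiers. Named members were up to 10 per direction with the smallest edgeR p, up to 3 per class by level per length, members of a list of T cell carriers, and any past the threshold for sex or interaction. On simulated data with 200 of 13129 genes changed by a log2 of 3, edgeR recovered 71.0% with 2.74% false calls, limma voom 68.5% with 4.20% and DESeq2 87.0% with 23.3%. The simulated counts held no difference between sexes or replicate numbers. The members' log2 fold changes ran only from -1.37 to 1.57, so these rates need not hold for the age comparison. Replicate numbers were checked as pairs within sex by the correlation of deviations from group means. For numbers 1 and 2 in males it was 0.323 and 0.176, where the highest with another number was -0.176 and 0.367. In females, numbers 1, 2 and 3 had 0.428, 0.0287 and 0.392, against -0.116, 0.187 and 0.106. The result was thus mixed, and the numbers were not taken to pair the libraries. The main model has no term for replicate number, so its SEs include the spread between numbers. Other scalings, filters, tools, blocks and left-out libraries were tried, and the fit of libraries numbered 2 and 3 was added after seeing the data.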

Additional observations from a re-analysis of the deposited data

Results flagged for a closer look

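Among 172 age groups of named members and class sums, 8 held a library far from the others by Dixon's ratio, about the 1 in 20 that chance flags. In 6 of the 8 the library was young male 1 or young female 1, the 2 shallowest libraries. Both also carry replicate number 1, as does middle-aged male 1, flagged below. Young male 1 was high for Slc25a33 (64.7 CPM, against 19.0 to 35.4 CPM in the other young libraries) and low for the NAD carrier Slc25a51 (21.5 CPM, against 44.3 to 53.8), the sulfate carrier family member Slc26a11 (14.5 CPM, against 61.5 to 83.1) and the riboflavin carrier Slc52a2 (3.97 CPM, against 43.7 to 62.7). Young female 1 was high for the CMP-sialic acid carrier Slc35a1 (57.1 CPM, against 23.7 to 33.5) and for Slc35b3 (108 CPM, against 51.4 to 70.1). In the middle-aged group, middle-aged male 1 was high for Slc25a1 (78.8 CPM, against 47.7 to 52.6), and middle-aged female 2, the library with the most myeloid marker counts, was low for Slc26a6 (1.75 CPM, against 9.26 to 11.7).

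The 74 named members and the class sums were also searched for opposite age differences in the sexes with no overlap within either sex. Only 1 was found, Slc7a6os, which encodes no carrier. The groups compared were 3 young and 2 middle-aged males, and 3 young and 3 middle-aged females. The share of all genes with such a pattern was not computed. It had a mean of 36.6 CPM in young against 55.1 CPM in middle-aged males, and of 44.1 CPM in young against 38.9 CPM in middle-aged females, with no overlap within either sex. It was picked for these values, and its interaction term in edgeR had a log2 of -0.77, an unadjusted p of 0.0903 and an adjusted p of 1.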

How the results depend on the processing

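Under none of the alternatives tried did a member reach an adjusted p under 0.05, and the lowest was 0.0972 (Slc43a2, limma voom). The 2 higher and 2 lower members at an unadjusted p under 0.05 became 0 higher with library size alone, 1 higher with at least 10 counts in every library, without a sex term, or in females alone (0 lower), and 0 higher and 0 lower in males alone. In these settings, in this order, 1.25%, 3.42%, 2.5%, 0.625% and 0% of members passed in either direction. Over all genes tested the shares were 2.66%, 2.78%, 3.46%, 2.09% and 1.48%. DESeq2 gave 4 lower and limma voom 5 lower, and libraries with over 10000000 counts gave 1 higher and 6 lower. In these 3 settings 3.75%, 5% and 4.38% of members passed, against 4.43%, 8.96% and 5.84% of all genes tested. With each library left out, there were 0 to 2 higher and 1 to 5 lower, with 0 higher without middle-aged female replicates 2 or 3, 4 lower without young male replicate 1, 5 lower without young female replicate 1 and 1 lower without young female replicate 2 or middle-aged female replicates 1 or 2. In either direction, 0.625% to 3.75% of members passed in these fits, against 2.35% to 3.51% of all genes tested. A replicate block within sex gave 9 higher, and a replicate block shared by both sexes gave 10 higher and 6 lower, which is 6.88% and 10% of members in either direction, against 6.37% and 8.87% of all genes tested. The numbers were not taken as pairs, and Slc40a1 became 2.73 and 2.47 with these replicate blocks. Log2 fold changes near 0 changed sign. Slc29a1 was -0.0147, Slc25a5 0.0161 and Slc1a5 -0.39 with limma voom, and Slc1a5 was -0.0134 with library size alone. In libraries with over 10000000 counts Slc25a5 was 0.29, Slc50a1 0.15, Slc1a5 -0.17, Slc2a1 -0.0856 and Slc16a1 -0.21. In males alone Slc25a5 was 0.11, Slc50a1 0.0378 and Slc1a5 -0.21, in females alone Slc2a3 was 0.10, and in libraries numbered 2 and 3 Slc1a5 was -0.25. With each library left out, Slc25a5 ran from -0.23 to 0.17, Slc1a5 from -0.11 to 0.19, Slc2a1 from -0.0713 to 0.20, Slc16a1 from -0.0182 to 0.35 and Slc40a1 from -1.78 to 0.82. The median over members of the difference in mean log2 CPM, in place of the log2 sum, was 0.27 for metals and heme, 0.21 for nucleotide sugars and acetyl-CoA, 0.24 for organic acids, amines and drugs and 0.0694 for sugars and polyols, where leaving out the highest member gave 0.0884. The medians of edgeR's fitted log2 fold changes in these 4 classes were smaller in 3, with 0.05, 0.11, 0.11 and 0.07. The cause was not tested, and in fits with fewer libraries fewer samples enter.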
